A study of Mus musculus with 27 samples.

Results

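The 44 collagen genes of the mouse that the array measures were described in the TAMH line, a mouse hepatocyte line with transgenic transforming growth factor alpha. The genes were taken by name: a probe set had to carry a single symbol of the form Col, number, a, number, and where a symbol had more than 1 probe set the one with the highest mean over 27 arrays was kept. This gave 44 of the 19938 genes measured, of which Col6a5 and Col6a6 had more than 1 probe set.

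Cultures were dosed with acetaminophen (APAP, 2 mM) or its regioisomer AMAP (2 mM), or were given control medium, for 2, 6 or 24 h. The ring hydroxyl is para in APAP and meta in AMAP. The 9 groups are therefore control, APAP and AMAP cultures at each of the 3 times, all of the same line in the same serum-free medium with dexamethasone, insulin, transferrin and selenium. Each group holds 3 arrays, numbered 30, 31 and 32 in the labels, and nothing states that these were separate cultures, so p-values measure the spread between arrays, which may be technical. TAMH is a single immortal line, which limits it as a model of liver tissue.

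Collagens are secreted proteins built as a helix wound from 3 chains, each chain the product of its own gene. Fibrillar collagens form the cable-like fibres of scar and connective tissue, network collagens such as type IV form the sheet of basement membranes, and fibril-associated collagens sit on the fibre surface. In the liver most fibrillar collagen is made by stellate cells and fibroblasts rather than by hepatocytes. Chains are hydroxylated on proline and lysine inside the cell, trimmed after secretion and then crosslinked.

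The values are log2 signals from robust multi-array averaging (RMA), so a difference of 1 is a doubling of signal. All 27 arrays entered 1 linear model with a mean for each group (limma), and a gene counted as called when its p, adjusted over all 19938 genes by Benjamini and Hochberg's method, was under 0.05. Replicate arrays correlated at r = 0.992 to 0.997, and array medians lay between 7.25 and 7.36. The 24 h APAP array numbered 31 lay farthest out on the leading principal component (score 31.4, against 19.3 and 13.4 for the other 24 h APAP arrays). Hepatocyte markers, with 9 of 12 matched, lay at a median percentile of 98.2 of all genes. Stellate cell and fibroblast markers lay at 35.6 (20 of 20 matched), endothelial markers at 26.6 (12 of 12), macrophage and leukocyte markers at 23.4 (11 of 12) and biliary and progenitor markers at 70.6 (7 of 9). Single markers lay far from these medians. The stellate cell and fibroblast list ran from 2.37 (Lum) to 99.75 (Vim), with Dcn at 98.46. The endothelial list ran from 7.46 to 62.04, the macrophage and leukocyte list from 12.11 to 95.18 (Cd14), and the biliary list from 31.48 to 97.58.

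Collagen probe sets were spread over the whole middle of the array signal. Their means ran from 6.07 (Col5a2) to 9.99 (Col18a1), with a median of 7.33, and the median member lay at percentile 50.4 of all genes. Of the 44, 16 were above the array's median on all 27 arrays and 16 were above it on none. The 5 with a mean of at least 8 were Col18a1, the source of endostatin, and 4 type IV genes, Col4a1, Col4a2, Col4a5 and Col4a6. The fibrillar genes Col1a1, Col1a2 and Col3a1, which encode the chains of types I and III, had means of 7.71, 7.56 and 7.15. Signals of different probe sets do not give the order of RNA amounts, and an array gives no true zero, so a probe set near the array median cannot be read here as expressed or absent.

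**Figure D1:**
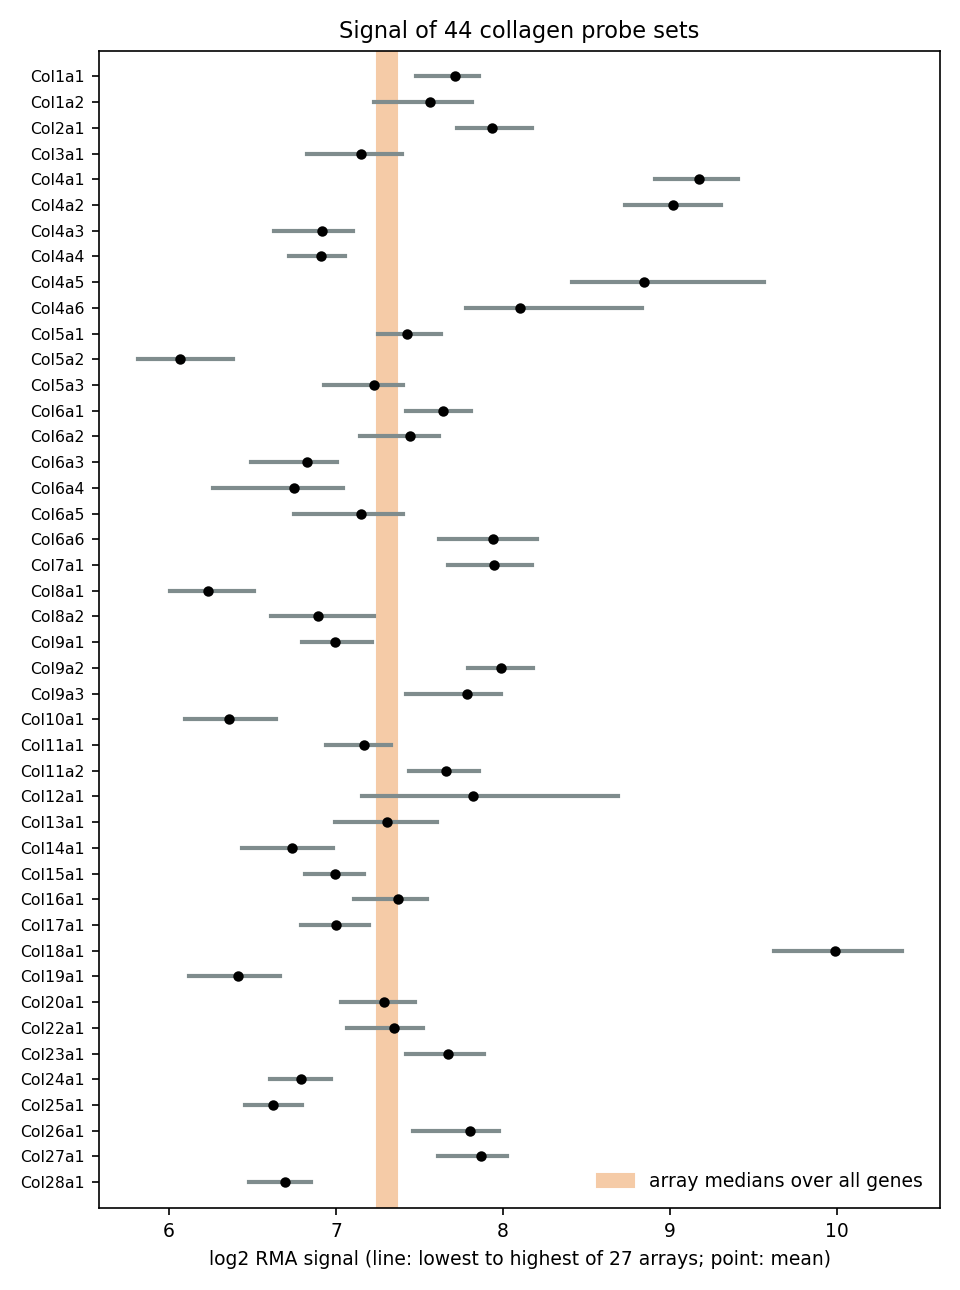
Log2 RMA signal (horizontal axis) of the 44 collagen probe sets in order of collagen type; each line runs from the lowest to the highest of 27 arrays, the point is the mean, and the shaded band spans the array medians, 7.25 to 7.36. Col12a1, Col4a5 and Col4a6 have long lines, and Col18a1 and Col4a1, Col4a2, Col4a5 and Col4a6 have means of at least 8.

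Few members varied across the groups. The distance between the highest and the lowest of a gene's 9 group means was 1.36 for Col12a1, 0.75 for Col4a5 and 0.57 for Col4a6, and at most 0.40 for the other members. The sections that follow take the fibril-associated members first, then the fibrillar and other classes, the type IV pairs, and the genes that fold, cut, crosslink and bind collagen.

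Col12a1 encodes the chain of type XII collagen, a fibril-associated collagen that lies along fibres of type I. At 24 h the APAP arrays read 8.69, 8.35 and 8.66 (mean 8.57 ± 0.18 SD, n = 3). The control arrays at that time read 7.23, 7.54 and 7.19 (7.32 ± 0.19 SD, n = 3), and the AMAP arrays 7.16, 7.22 and 7.24 (7.20 ± 0.04 SD, n = 3). All 3 APAP arrays were above every control and AMAP array of that time, while AMAP and control overlapped.

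Col12a1 was thus 2.38-fold higher after 24 h of APAP than in control, a log2 difference of 1.25 ± 0.12 (SE; 95% interval 1.00 to 1.50; limma, adjusted p = 3.40e-07). Against AMAP at the same dose and time it was 2.57-fold higher, 1.36 ± 0.12 log2 (SE, adjusted p = 6.24e-08). By size the increase over control ranked 10 of 19938 genes, and by p it ranked 9. Both differences stayed called in 17 of 17 alternative settings, at 1.14 to 1.46 and 1.28 to 1.47. With AMAP at 24 h, the difference from control was -0.11 ± 0.12 (SE, 95% interval -0.36 to 0.14), and it was not called. Col12a1 was the only member of 44 called higher with APAP at 24 h, where 3.36% of all genes were called higher and 9.33% in either direction. It was also the only member called higher in APAP than in AMAP at 24 h, where 1.87% of genes were higher and 4.65% were called either way.

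At the earlier times the APAP and control arrays of Col12a1 overlapped. At 2 h Col12a1 read 7.71, 8.07 and 7.62 in control, 7.64, 7.87 and 7.62 with APAP, and 7.48, 7.80 and 7.34 with AMAP. At 6 h it read 8.16, 8.20 and 8.22 in control, 8.12, 8.15 and 8.22 with APAP, and 7.79, 8.04 and 7.80 with AMAP. At 6 h all AMAP arrays were below all control arrays, by 0.32 ± 0.12 log2 (SE), which was not called (adjusted p = 0.357). The corresponding AMAP difference at 2 h was -0.26 (adjusted p = 0.719), and APAP exceeded AMAP at 6 h by 0.28 (adjusted p = 0.561).

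The APAP difference at 24 h exceeded that at 2 h by 1.34 ± 0.17 log2 (SE, limma interaction contrast, adjusted p = 2.24e-04). Col12a1 was the only member so called, where 0.171% of genes were called higher. Without the arrays numbered 30 the adjusted p was 0.0955. Against 6 h, a contrast added after the data were seen, the excess was 1.28 ± 0.17 (SE, adjusted p = 7.30e-04), and Col12a1 was 1 of 2 genes called, 0.01% of all. That call was lost without number 30 (adjusted p = 0.312) and without number 32 (0.182). For the corresponding AMAP contrast between 24 h and 2 h no member was called, and 0% of all genes were.

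**Figure D2:**
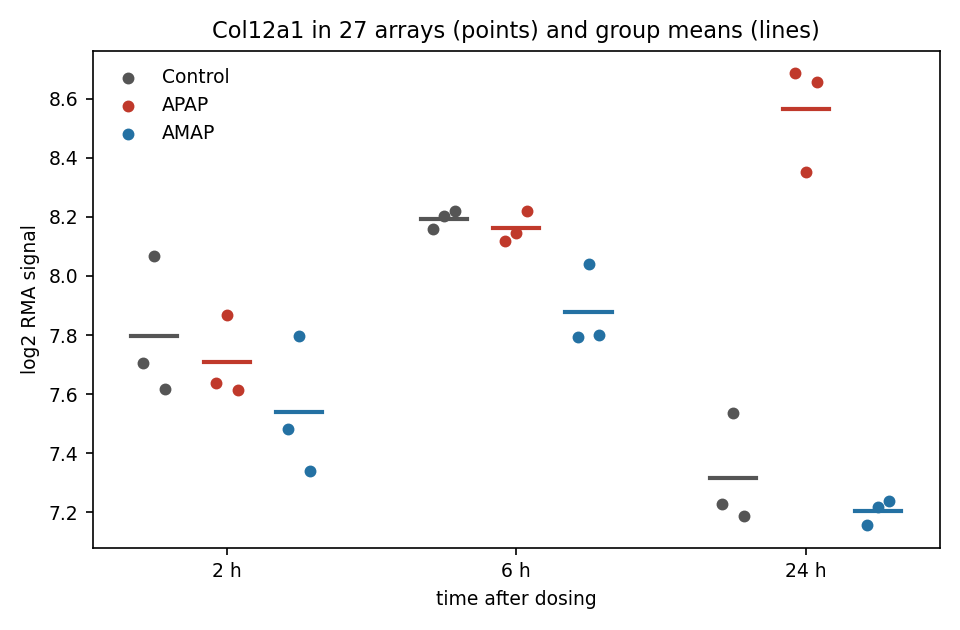
Log2 RMA signal of Col12a1 (vertical axis) by time and treatment; points are the 27 arrays and lines the means of 3 arrays. The 24 h APAP arrays sit between 8.35 and 8.69, and the 24 h control arrays between 7.19 and 7.54.

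The Col12a1 signal of the control cultures also moved with time. It was lower at 24 h than at 6 h in control, by -0.88 ± 0.12 log2 (SE, adjusted p = 0.00255), the smallest p of all genes, and only 3 genes, 0.015%, were called lower: Col12a1, Apon and Irgm1. These other genes are named because the count is small. The Col12a1 call was lost without number 30, without number 32 and without the 24 h control array 30, with differences of -0.99 to -0.80 and an adjusted p of up to 0.452 over 16 alternatives. From 2 h to 24 h control fell by 0.48 (adjusted p = 0.0495; 0.627% of genes called lower), a call lost in 8 of 16 alternatives. From 2 h to 6 h control differed by 0.40 and was not called (adjusted p = 0.168), and no member was called there, where 0.707% of genes were. That 6 h to 2 h difference was called when the arrays numbered 31 were left out.

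In treated cultures, compared over time in contrasts added after the data were seen, Col12a1 moved in different directions. With APAP it was 0.86 ± 0.12 log2 higher at 24 h than at 2 h (SE, adjusted p = 3.62e-05), a call kept in 16 of 16 alternatives. Between 6 h and 24 h of APAP it was 0.40 higher (adjusted p = 0.0408), a call lost in 7 of 16. With AMAP it fell by 0.67 between 6 h and 24 h (adjusted p = 0.0196; 0.201% of genes called lower), a call lost in 6 of 16. The AMAP difference of -0.34 between 2 h and 24 h was not called.

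Of the other 8 fibril-associated members, Col14a1, which encodes the chain of type XIV collagen, was the only member called in any treatment comparison besides Col12a1. At 2 h it read 6.87, 6.85 and 6.98 with APAP, 6.57, 6.44 and 6.66 with AMAP, and 6.71, 6.65 and 6.73 in control. All APAP arrays were above all arrays of both other groups. APAP exceeded AMAP by 0.34 ± 0.07 log2 (SE, adjusted p = 0.0280), the only call of 44 members where 0.0953% of genes were called higher and 0.261% in either direction. This call was lost in 11 of 17 alternatives: quantile normalization, centring of arrays, a model of the 2 h arrays alone, and 8 of the 9 settings that leave out arrays. It was kept with 2 h AMAP array 32 left out. Without 2 h APAP array 30, 31 or 32, 2 h AMAP array 30 or 31, or any of the 3 numbers, it was not called. The difference was 0.25 to 0.40 over the 17 alternatives, with an adjusted p of up to 0.735. At 24 h Col14a1 differed by 0.06 ± 0.07 (SE) between APAP and control.

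No member was called in the other 6 treatment comparisons. At 2 h 0 of 44 were called with APAP against control (0.682% of all genes called) and 0 with AMAP (0.181%), with 4 and 1 members at an unadjusted p under 0.05 in limma, 9.09% and 2.27% of members against 9.26% and 6.80% of all genes. At 6 h 0 of 44 were called with APAP (2.5% of genes), 0 with AMAP (0.456%) and 0 between the compounds (0.707%), with 1, 5 and 1 members at an unadjusted p under 0.05. Those were 2.27%, 11.4% and 2.27% of members, against 12.3%, 9.47% and 7.41% of all genes. At 24 h 0 were called with AMAP (0.727%), with 1 at an unadjusted p under 0.05 (2.27% of members, 11.2% of all genes). In the 24 h APAP comparison with control, the 43 members that were not called differed by -0.20 to 0.21 log2, and their 95% intervals lay within -0.46 to 0.46. For AMAP at 24 h the differences ran from -0.21 to 0.25 and the intervals within -0.41 to 0.52, so a change of that size in a single member was not resolved. Of the members among the 3 largest differences of a treatment comparison, only Col12a1 and Col14a1 were called in any. Col4a1, Col4a5 and Col4a6 were among them and were not called, and neither were the rest. With APAP at 2 h the rest were Col8a2 (0.24) and Col6a5 (0.21), and with AMAP at 2 h Col6a4 (-0.22). At 6 h Col6a1 gave 0.17 with APAP and 0.23 with AMAP. Col18a1 gave -0.16 with APAP and -0.20 with AMAP at 6 h and -0.20 with APAP at 24 h. In APAP against AMAP at 2 h Col6a4 gave 0.28 and Col6a5 0.26. Col9a3 gave -0.15 and Col4a4 -0.10 between the compounds at 6 h. At 24 h Col13a1 gave 0.21 with APAP, Col23a1 gave -0.21 with AMAP and 0.24 between the compounds, and Col15a1 gave 0.23 between them. Their adjusted p ran from 0.102 (Col15a1) to 0.900 (Col4a4). Col4a6 gave -0.21 with APAP at 6 h, and Col4a1 had a mean of 9.01 with AMAP at 2 h against 9.17 in control.

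**Figure D3:**
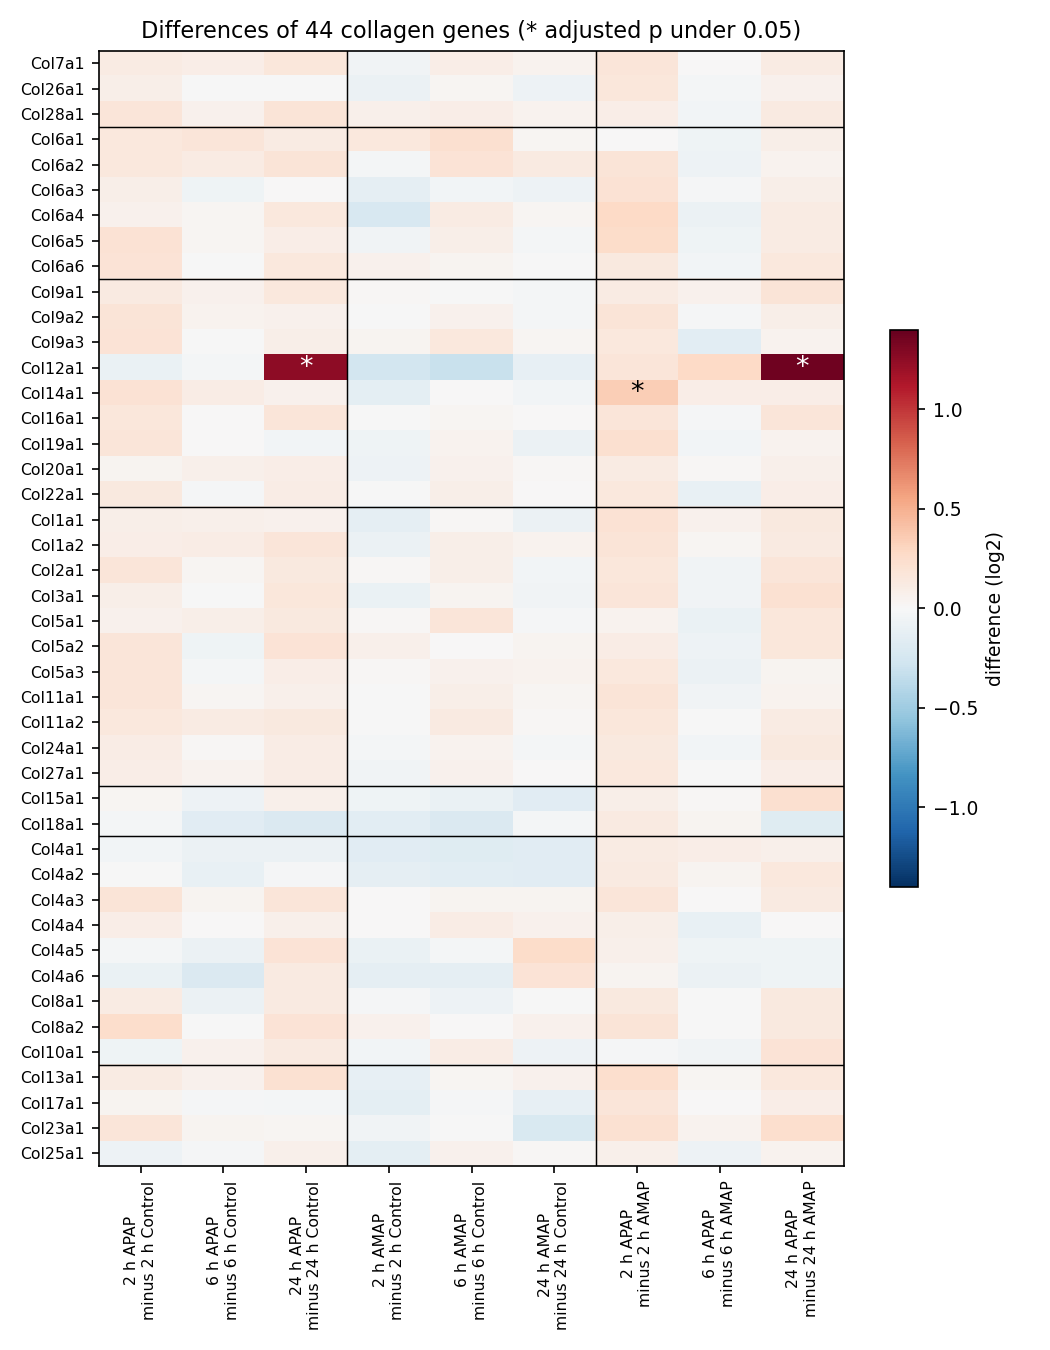
Log2 difference (colour) of each of the 44 collagen genes, grouped from top to bottom as anchoring fibril and other, type VI, fibril-associated, fibrillar, multiplexin, network and transmembrane, in the 9 treatment comparisons; a star marks an adjusted p under 0.05. Stars stand only at Col12a1 in both 24 h APAP comparisons and at Col14a1 in APAP against AMAP at 2 h.

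The 11 fibrillar members gave small differences of 1 sign with APAP at 2 h and 24 h, but not at 6 h. Against control at 24 h all 11 were above 0, from 0.06 to 0.19 log2 with a median of 0.13, and none was called. Col1a2 read 7.64, 7.66 and 7.81 with APAP against 7.56, 7.49 and 7.54 in control, without overlap, a difference of 0.17 ± 0.08 (SE, adjusted p = 0.179). Col3a1 read 7.28, 7.40 and 7.28 against 7.13, 7.13 and 7.19, also without overlap (0.16 ± 0.08 SE, adjusted p = 0.254). Col1a1 read 7.71, 7.85 and 7.85 against 7.70, 7.73 and 7.83, and the groups overlapped (0.05 ± 0.08 SE, adjusted p = 0.729). The type V chain genes Col5a1 and Col5a2 gave 0.13 and 0.19 with APAP (adjusted p = 0.339 and 0.199). With AMAP at 24 h the fibrillar differences ran from -0.08 to 0.05. At 2 h the means of all 11 were also above control with APAP. At 6 h those of Col3a1, Col5a2 and Col5a3 were below control with APAP and the rest above it.

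Most members of the whole set also lay above 0 in APAP against control and in APAP against AMAP, each at 2 h and at 24 h. With APAP at 24 h 38 of 44 members were above control, where 54.6% of all genes were. The median difference was 0.11, against 0.02 over all genes. Of the members, 39 had mean signals between 6 and 8, and their median was 0.12, while the 6586 genes in that band had 0.06, with 68.0% above 0. At an unadjusted p under 0.05 were 18.2% of members and 22.3% of all genes. With APAP at 2 h 36 of 44 members were above control, where 54.4% of all genes were and 66.1% of the band. The median was 0.11, against 0.01 over all genes and 0.04 in the band. At 6 h 25 of 44 were above control, where 50.2% of all genes were, and the median was 0.01.

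Against AMAP at 24 h 41 of 44 members were higher, where 55.0% of all genes were and 71.1% of the band. The median was 0.12, against 0.02 over all genes and 0.07 in the band. At an unadjusted p under 0.05 were 11.4% of members and 18.9% of all genes, so at 24 h the members' share was below that of all genes in both APAP comparisons.

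At 2 h 43 of 44 members were higher in APAP than in AMAP, where 61.1% of all genes were and 75.3% of the band. The median was 0.15, against 0.03 over all genes and 0.08 in the band. In that comparison 16 of 44, or 36.4%, had an unadjusted p under 0.05 in limma, all higher. Of all genes 7.11% were higher at that bound and 9.33% passed it in either direction. These shares are of the main model with all 27 arrays. Without the single 2 h AMAP array 31 the median was 0.08, and without number 31 it was also 0.08. With AMAP at 24 h 22 members were above and 22 below control, and the median was 0.00.

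Members share arrays and are not independent. Centring each array on its median lowered members and all genes together. For APAP at 24 h the members' medians were then 0.08 against control (all genes -0.02) and 0.06 against AMAP (all genes -0.03). At 2 h they were 0.08 against control (all genes -0.03) and 0.09 against AMAP (all genes -0.03).

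Type VI collagen forms beaded filaments around cells, and its 6 measured genes gave 24 h APAP differences of 0.01 (Col6a3) to 0.18 (Col6a2) with none called, and Col6a1 gave 0.12. The 4 transmembrane members, among them Col17a1 of the hemidesmosome, ran from -0.02 to 0.21, and the 3 anchoring and other members, among them the anchoring fibril gene Col7a1 (0.16), from -0.01 (Col26a1) to 0.18 (Col28a1). The multiplexin Col18a1 read 10.00, 10.25 and 9.68 with APAP at 24 h against 10.27, 10.18 and 10.09 in control. The groups overlapped and the difference was -0.20 ± 0.13 (SE, adjusted p = 0.396). Col15a1, the other multiplexin, differed by 0.07 in that comparison.

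Type IV genes lie in the genome in head-to-head pairs, Col4a1 with Col4a2, Col4a3 with Col4a4 and Col4a5 with Col4a6, and the partners' starts lie close together. Chains of Col4a1 and Col4a2 make the common basement membrane network, while the chains of the other pairs make more restricted networks. The 300-base windows from 250 bases before to 50 bases after the start are shown for both pairs whose partners have a high signal, because the shared start region is what the pairs have in common. They come from RefSeq on GRCm38.p6, the genome build of the arrays' annotation not being given in the sources used here, and 35 of 44 members had a window. Capitals mark the GC box GGGCGG and the box CCAAT on either strand (in the reverse strand CCGCCC and ATTGG).

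Col4a1 (chr8:11312777-11313076, minus strand): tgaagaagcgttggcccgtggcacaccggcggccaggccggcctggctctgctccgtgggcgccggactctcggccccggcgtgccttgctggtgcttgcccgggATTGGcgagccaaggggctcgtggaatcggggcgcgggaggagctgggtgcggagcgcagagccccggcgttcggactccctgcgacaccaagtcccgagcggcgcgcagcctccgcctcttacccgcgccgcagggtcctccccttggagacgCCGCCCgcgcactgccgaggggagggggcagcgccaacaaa
Col4a2 (chr8:11312555-11312854, plus strand): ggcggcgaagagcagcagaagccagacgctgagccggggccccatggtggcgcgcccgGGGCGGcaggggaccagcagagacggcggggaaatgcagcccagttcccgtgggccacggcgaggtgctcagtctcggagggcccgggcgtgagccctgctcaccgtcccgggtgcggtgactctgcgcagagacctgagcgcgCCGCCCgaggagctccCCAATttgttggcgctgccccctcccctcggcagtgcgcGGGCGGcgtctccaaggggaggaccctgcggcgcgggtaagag
Col4a5 (chrX:141475169-141475468, plus strand): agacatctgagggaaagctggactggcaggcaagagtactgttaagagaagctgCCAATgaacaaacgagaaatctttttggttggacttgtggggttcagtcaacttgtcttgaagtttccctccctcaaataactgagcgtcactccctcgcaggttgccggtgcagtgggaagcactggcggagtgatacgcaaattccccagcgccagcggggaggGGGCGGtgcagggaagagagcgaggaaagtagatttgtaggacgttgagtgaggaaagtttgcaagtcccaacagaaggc
Col4a6 (chrX:141474027-141474326, minus strand): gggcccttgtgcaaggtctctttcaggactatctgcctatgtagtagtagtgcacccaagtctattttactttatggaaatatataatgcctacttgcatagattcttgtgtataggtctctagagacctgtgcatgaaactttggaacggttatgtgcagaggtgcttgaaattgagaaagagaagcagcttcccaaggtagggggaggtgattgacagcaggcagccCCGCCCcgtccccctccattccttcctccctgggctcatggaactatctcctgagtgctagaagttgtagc

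The Col4a1 and Col4a2 windows overlap by 78 bases on opposite strands, whereas 842 bases separate the Col4a5 and Col4a6 windows. The G and C content was 74% for Col4a1, 73.67% for Col4a2, 52.67% for Col4a5 and 48.33% for Col4a6, and the median of all windows was 52.67%. Each window held a GC box, which 35.66% of 32851 windows of this length hold and 23 of 38 collagen windows, since some genes have more than 1 start (60.53%). The only GC box of Col4a1 lies in the overlap. It is the same stretch as 1 of the 3 GC boxes of Col4a2, so those windows are not separate counts. CCAAT was present in 3 of these 4 windows, and in 37.41% of all windows and 13 of 38 collagen windows (34.21%). A match describes the letters and does not show that a factor binds there.

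The partners of 2 pairs varied together from array to array, and so did other pairs of members. After group means were removed, Col4a1 and Col4a2 correlated over 27 arrays at r = 0.857 (Spearman's rho 0.833), rank 3 of 946 pairs of members (two-sided permutation within groups, p = 1.2e-04, adjusted over 3 pairs 3.6e-04; rho p = 1.1e-04). Col4a5 and Col4a6 correlated at r = 0.784 (rho 0.756; permutation p = 5.6e-04, adjusted 8.4e-04; rho p = 5.3e-04) and ranked 37. Without the 2 arrays farthest from the median, r was 0.807 and 0.695. Col4a3 and Col4a4 gave r = 0.424 (rho 0.349; permutation p = 0.153, rho p = 0.157; 0.291 without 2 arrays), below the median of 0.445 over all pairs. That median shows how far any collagen probe sets moved together on these arrays, which share their RNA and hybridisation. The permutation compared r with no correlation and not with that median, so its p cannot show a link particular to partners. At rank 37, Col4a5 and Col4a6 were less closely correlated than some members that are not partners.

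Col4a5 and Col4a6 rose between 2 h and 24 h in the treated cultures. Col4a5 read 8.73, 8.48 and 8.71 after 2 h of APAP and 9.33, 9.49 and 8.94 after 24 h. With AMAP it read 8.76, 8.53 and 8.42 at 2 h and 9.30, 9.56 and 9.09 at 24 h. In both treatments every 24 h array was above every 2 h array. The rise was 0.61 ± 0.13 log2 with APAP (SE, adjusted p = 0.00182) and 0.75 ± 0.13 with AMAP (SE, adjusted p = 0.00114).

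Control cultures read 8.74, 8.69 and 8.57 at 2 h and 9.22, 9.04 and 8.92 at 24 h, again without overlap. Their difference of 0.40 ± 0.13 (SE) was not called (adjusted p = 0.129). Neither compound's difference from control at 24 h was called for Col4a5: APAP gave 0.19 ± 0.13 (SE; 95% interval -0.08 to 0.45) and AMAP 0.25 ± 0.13 (SE; -0.01 to 0.52).

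Col4a6 read 7.90, 7.81 and 8.08 after 2 h of APAP and 8.48, 8.62 and 8.10 after 24 h, also without overlap (0.47 ± 0.14 SE, adjusted p = 0.0204). With AMAP it read 7.93, 7.89 and 7.85 at 2 h and 8.34, 8.83 and 8.19 at 24 h (0.56 ± 0.14 SE, adjusted p = 0.0113). In control it read 8.03, 7.997 and 8.04 at 2 h and 8.39, 8.35 and 8.06 at 24 h, again without overlap, a difference of 0.25 ± 0.14 (SE) that was not called (adjusted p = 0.440). At 24 h Col4a6 differed from control by 0.13 with APAP (adjusted p = 0.633) and 0.19 with AMAP (adjusted p = 0.666), and the arrays overlapped. The comparisons of treated cultures over time were added after the data were seen.

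In all, 3 members were called higher between 2 h and 24 h of APAP, Col4a5, Col4a6 and Col12a1, where 5.47% of genes were. The same 3 were called between 6 h and 24 h of APAP, where 2.34% were. Between 2 h and 24 h of AMAP, Col4a5 and Col4a6 were called (4.83% of genes higher), and between 6 h and 24 h Col4a5 was (0.296% higher). The Col4a5 calls from 2 h to 24 h were lost only without number 31, at 0.41 for APAP (adjusted p = 0.123) and 0.60 for AMAP (0.0748). Those for Col4a6 were lost in 6 of 16 alternatives with APAP and in 3 of 16 with AMAP, numbers 30 and 31 among them in both. From 6 h to 24 h the Col4a5 calls were lost in 3 of 16 (APAP) and 6 of 16 (AMAP) and the Col4a6 call in 6 of 16.

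None of the calls over time fell on Col4a1 or Col4a2. Col4a1 read 9.40, 9.16 and 9.15 with APAP at 24 h, 9.12, 9.24 and 9.14 with AMAP, and 9.35, 9.29 and 9.33 in control. All AMAP arrays were below all control arrays, by 0.16 ± 0.08 log2 (SE), which was not called (adjusted p = 0.500), and APAP overlapped with control. Col4a2 gave -0.16 ± 0.09 (SE) for AMAP and -0.02 ± 0.09 (SE) for APAP at that time.

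**Figure D4:**
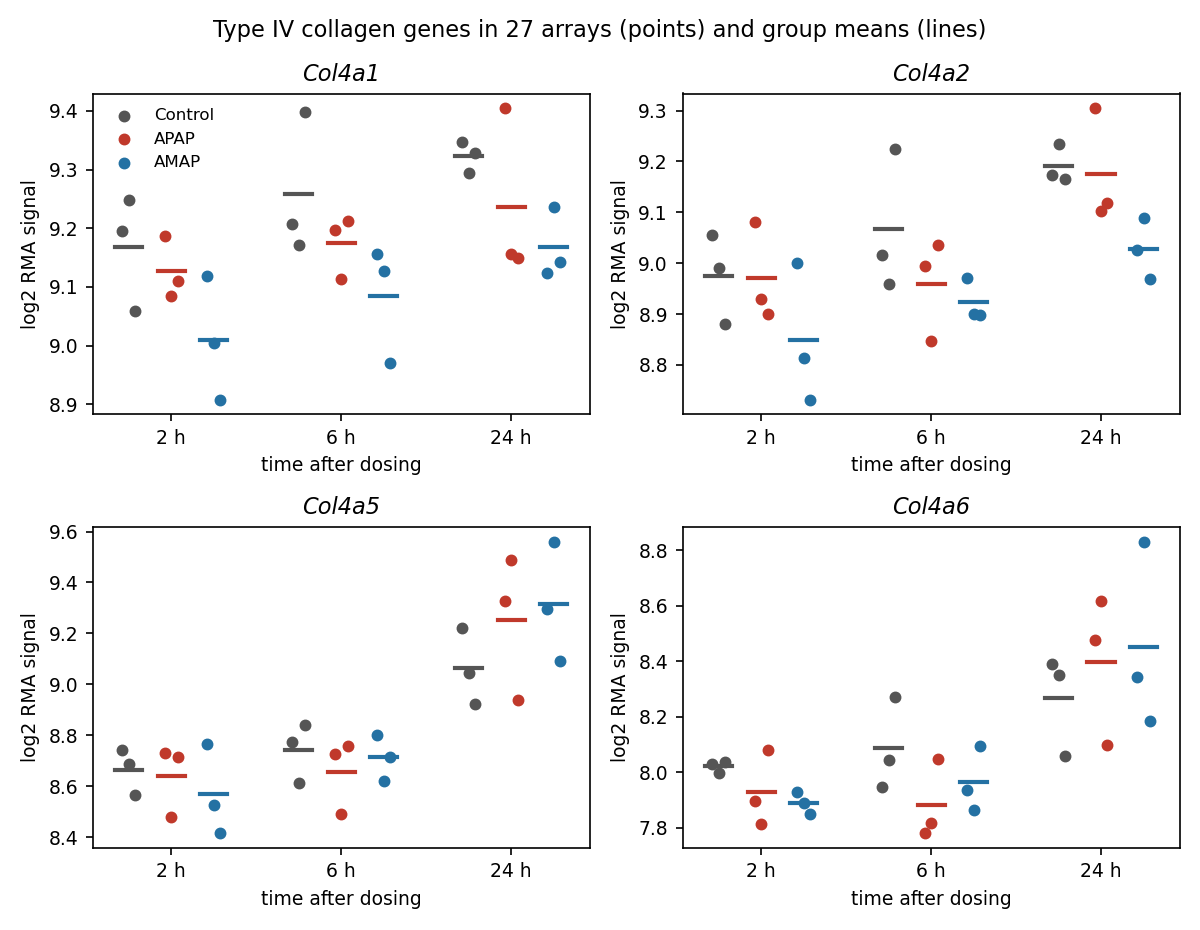
Log2 RMA signal (vertical axes, each panel with its own range) of 4 type IV collagen genes by time and treatment; points are arrays and lines means of 3 arrays. The means of Col4a5 and Col4a6 are highest at 24 h in control, APAP and AMAP cultures, and the 24 h AMAP arrays of Col4a1 lie below the 24 h controls.

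Genes that act on collagen were read from 6 lists chosen by function, of which 106 of 115 entries were measured. No list gene was called at 2 h. At 6 h APAP gave 3 higher and 2 lower (4.72% of the 106, against 2.5% of all genes). AMAP gave 0 and 1 at 6 h (0.943%, against 0.456%), and APAP against AMAP 1 and 0 (0.943%, against 0.707%). At 24 h APAP gave 4 higher and 7 lower, 10.4% of the 106 against 9.33% of all genes. AMAP gave 0 and 3 at 24 h (2.83%, against 0.727% of all genes), and APAP against AMAP 2 and 1 (2.83%, against 4.65%).

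The folding and modification list held 21 measured genes, and its 3 calls with APAP were all hydroxylases. Plod2, the lysyl hydroxylase of the chain ends that set crosslinks, read 8.58, 8.45 and 8.85 with APAP at 24 h. It read 7.81, 7.70 and 7.42 in control and 7.66, 7.52 and 7.33 with AMAP, so APAP stood apart from both. The difference from control was 0.98 ± 0.12 log2 (SE, adjusted p = 5.08e-06) and from AMAP 1.13 ± 0.12 (SE, adjusted p = 5.59e-07). At 6 h APAP already read 8.41, 8.52 and 8.51 against 7.63, 7.75 and 7.58 in control, 0.83 ± 0.12 higher (SE, adjusted p = 1.18e-04), and it exceeded AMAP by 0.76 (adjusted p = 7.73e-04). These 4 Plod2 calls were kept in 17 of 17 alternatives. Plod2 was thus called with APAP at 6 h and 24 h, and Col12a1 at 24 h.

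Plod1, another lysyl hydroxylase, read 9.63, 9.68 and 9.60 with APAP at 24 h and 9.01, 9.10 and 9.20 in control (0.54 ± 0.08 SE, adjusted p = 1.22e-04, kept in 17 of 17). AMAP read 9.45, 9.43 and 9.42, above all controls, which was not called (adjusted p = 0.0515). At 6 h Plod1 was 0.36 higher with APAP (adjusted p = 0.0136), a call lost in 6 of 17 alternatives. P4ha1, a catalytic subunit of prolyl 4-hydroxylase, rose by 0.46 ± 0.09 at 6 h (SE, adjusted p = 0.00277) and 0.34 ± 0.09 at 24 h (SE, adjusted p = 0.0124). Those calls were lost in 3 and 4 of 17 alternatives, at 24 h without number 30, number 31, control array 32 or APAP array 31.

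**Figure D5:**
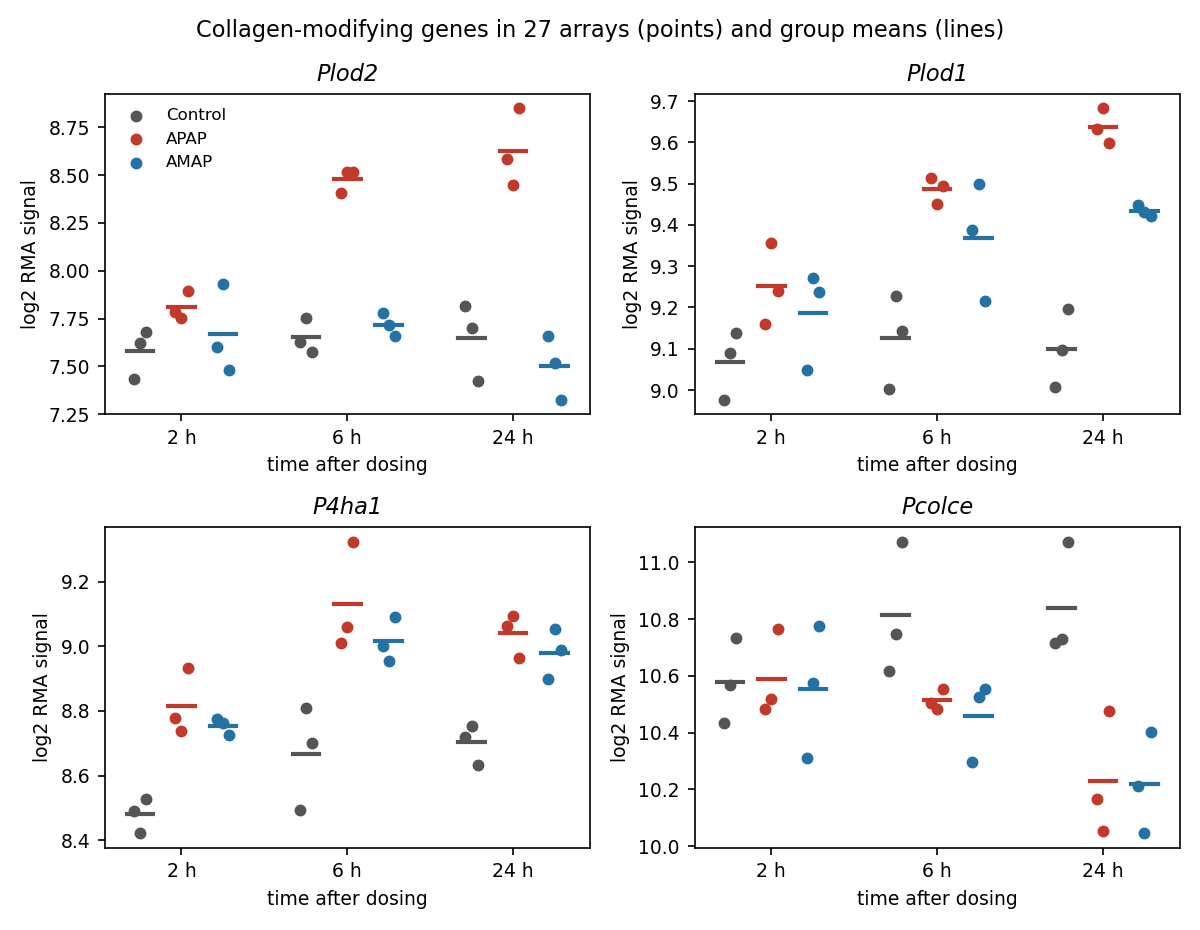
Log2 RMA signal (vertical axes, each panel with its own range) of Plod2, Plod1, P4ha1 and Pcolce by time and treatment; points are arrays and lines means of 3 arrays. Plod2 stands apart with APAP at 6 h and 24 h, and Pcolce is lower at 24 h with both compounds.

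In the processing and crosslinking list (12 measured) the calls went down. Pcolce, which speeds the removal of procollagen's C-terminal propeptide, read 10.17, 10.05 and 10.48 with APAP at 24 h, 10.21, 10.05 and 10.40 with AMAP, and 10.71, 10.73 and 11.07 in control. It was 0.61 lower with APAP (difference -0.61, SE 0.14, adjusted p = 0.00490) and -0.62 (SE 0.14, adjusted p = 0.0258) with AMAP. The calls were lost in 2 and 7 of 17 alternatives, numbers 30 and 31 among them in both, with an adjusted p of up to 0.135 and 0.418. Tgm2, a transglutaminase that crosslinks matrix proteins, read 10.19, 10.11 and 10.04 with APAP at 24 h against 10.67, 10.82 and 10.67 in control, a difference of -0.61 (SE 0.10, adjusted p = 1.92e-04) kept in 17 of 17. At 6 h its difference was -0.39 (adjusted p = 0.0256), lost in 7 of 17.

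Among 20 genes of collagen degradation and its inhibitors, Timp2, an inhibitor of matrix metalloproteinases, gave -0.41 at 24 h of APAP (adjusted p = 0.00212), a call lost only without number 30 (adjusted p = 0.101). Reck, a membrane-bound inhibitor, gave 0.26 (adjusted p = 0.0266), lost in 11 of 17. Mmp14, a membrane collagenase, gave -0.39 at 6 h of APAP (adjusted p = 0.0387), also lost in 11 of 17. Of 8 receptors, Itga1, the alpha chain of a collagen-binding integrin, was called. It read 10.71, 10.65 and 10.20 with APAP at 24 h, 11.45, 11.37 and 11.25 in control, and 11.28, 11.60 and 11.12 with AMAP. The differences of -0.84 (SE 0.14, adjusted p = 4.39e-04) and -0.82 (SE 0.14, adjusted p = 7.87e-04) were kept in 17 of 17.

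The list of regulators held 15 genes. Tgfb1, the ligand that induces collagen genes in fibroblasts, read 7.90, 7.94 and 8.02 with APAP at 24 h, 7.83, 7.48 and 7.70 with AMAP, and 8.33, 8.24 and 8.41 in control. It was lower with AMAP (-0.66, SE 0.09, adjusted p = 8.11e-04, kept in 17 of 17) and with APAP (-0.38, SE 0.09, adjusted p = 0.00784, lost without number 30 or 32, where it reached 0.158). Its receptor Tgfbr1 (-0.51, adjusted p = 0.0408) and the signal transducer Smad2 (-0.27, adjusted p = 0.0419) were lower with APAP, in calls lost in 11 and 10 of 17 alternatives. Other matrix proteins (30 measured) gave 3 calls. Nid1, a basement membrane linker, was -0.58 with AMAP at 24 h (adjusted p = 0.00505; lost without number 30 or 31, where it reached 0.182). Thbs1, which activates latent transforming growth factor beta, was -0.81 with AMAP at 6 h (adjusted p = 0.0288; lost in 8 of 17), and the laminin chain gene Lamb3 was 0.53 higher in APAP than in AMAP at 24 h (adjusted p = 0.0102; lost in 4 of 17).

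Markers of other cell types were set beside the 24 h APAP result, where 9.33% of all genes were called and 3.36% were called higher. Of 20 stellate cell and fibroblast markers 0 were called higher and 3 lower, Vim (-0.24), Pdgfra (-0.41) and Hgf (-1.02), in calls lost in 10, 3 and 3 of 17 alternatives. Hgf, the hepatocyte growth factor gene, read 6.91, 7.47 and 6.09 with APAP and 8.08, 8.06 and 7.40 in control, with overlap; without APAP array 32 its difference was -0.66. The median over that list was 6.45 to 6.51 on the APAP arrays, 6.45 to 6.61 in control and 6.32 to 6.44 with AMAP. None of 12 endothelial markers was called, 1 of 11 macrophage and leukocyte markers was higher (Spi1, 0.33), and 1 of 7 biliary and progenitor markers was lower (Sox9, -0.35). The Spi1 call was lost in 6 of 16 alternatives and the Sox9 call in 9 of 17. Sox9 was also lower in APAP than in AMAP at 24 h (-0.47, limma adjusted p = 0.0107), where 4.65% of all genes were called. That call was lost in 6 of 17. At 6 h Pdgfra gave -0.44 with APAP, and the leukocyte marker Cd14 gave -0.40 with APAP and -0.34 with AMAP, in calls lost in 6, 2 and 11 of 17 alternatives. The biliary list read 7.92 to 8.15 with APAP against 8.42 to 8.63 in control, and 7.78 to 8.74 with AMAP. The hepatocyte list read 11.68 to 12.19 with APAP and 11.75 to 12.16 with AMAP, against 11.41 to 11.75 in control. The part of these lists in the collagen results was not tested. In such bulk RNA fewer cells of a type and less RNA per cell cannot be told apart.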

How the data were processed

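Total RNA of TAMH cells was hybridised to 27 Affymetrix Mouse Gene 1.0 ST arrays. The deposited values are log2 signals that the authors made with RMA in Affymetrix Expression Console 1.1, per the submitters' processing notes. Base 2 was inferred from their range. The genome build is not given in the sources used here. Of 35557 probe sets, 21789 carry a single gene symbol, and the one with the highest mean was kept for each of 19938 genes. The members and gene lists were chosen with earlier results of these data known.

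Values were used without further scaling, and no dim gene was removed. A model with 9 group means over 27 arrays (18 residual degrees of freedom, prior 7.30) was fitted with limma 3.58.1 in R 4.3.3, with eBayes moderation, two-sided tests and Benjamini-Hochberg adjustment over all genes. The procedure was tested on simulated data. Named collagen genes were those called, the 3 largest differences of each treatment comparison and a panel of 12. Up to 4 called genes of each pathway or marker list were named. The number of arrays limits the precision. Scanner files were not analysed here.

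Array numbers were taken to pair arrays where, across genes, deviations from the group means of same-numbered arrays correlated at over 0.1 for every number, which held for 5 of 9 treatment comparisons (lowest r 0.188 to 0.254). In the others the lowest r was -0.118 to 0.0767. The main model held no term for the number in any comparison, so its standard errors and p-values are unpaired throughout. Alternatives were a block for the number, quantile normalization, centred arrays, a minimum mean of 6, the mean of probe sets, a trended robust prior, array weights, a model per time, and leaving out arrays.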

Additional observations from a re-analysis of the deposited data

Results flagged for a closer look

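For Col12a1 the effect of APAP differed between times, tested as an interaction in limma. The effect at 24 h exceeded that at 2 h by 1.34 ± 0.17 log2 (SE, adjusted p = 2.24e-04) and that at 6 h by 1.28 ± 0.17 (SE, adjusted p = 7.30e-04), with all 3 APAP arrays above all 3 controls at 24 h and overlapping groups at 2 h and 6 h. Without number 30 the adjusted p was 0.0955 and 0.312.

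For Plod2 the APAP effect at 24 h exceeded that at 2 h by 0.75 ± 0.16 log2 (SE, adjusted p = 0.0369), in a call lost in 12 of 22 alternatives, all of them settings that leave out arrays. Each array was left out in turn, and no other search for single outlying arrays in groups of 3 was made.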

How the results depend on the processing

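Of 19 counts of called collagen genes, 136 of 142 alternatives that keep all arrays stayed within 1.5 times the count, and 6 moved. For APAP against AMAP at 2 h the count went from 1 to 0 with quantile normalization, with centred arrays and with a model of that time alone. For control at 24 h against 2 h it went from 1 to 2 with array weights. For AMAP at 24 h against 2 h it went from 2 to 4 with a replicate block for the number and to 5 among genes with a mean of at least 6. The block changed no other count of members. The cause was not tested.

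When arrays were left out, 149 of 189 counts stayed within 1.5 times. The count was 1 in every such setting for APAP at 24 h against control and against AMAP. It was 0 in every such setting for the other treatment comparisons, except 0 to 1 for APAP against AMAP at 2 h. The range was 0 to 1 for each of the 3 control comparisons and for the APAP effect at 24 h against 2 h or 6 h. It was 0 to 2 for APAP at 24 h against 6 h, 1 to 3 for APAP at 24 h against 2 h, 0 to 2 for AMAP at 24 h against 6 h, and 0 to 5 for AMAP at 24 h against 2 h. For the AMAP effect at 24 h against 2 h it was 0. The 55 named differences followed through the alternatives were all called in the main model, so a reversal of sign was unlikely in advance, and none reversed. Differences of single genes that were not called were not followed in this way. Some medians over the members did change sign. For AMAP against control at 2 h the median went from -0.05 to 0.06 without number 31. With 3 arrays a group the median standard error of a collagen difference was 0.08 log2.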

Other observations

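Some genes of the collagen pathway also moved in control cultures over time. Tgfbr1, a receptor of transforming growth factor beta, was lower at 24 h than at 2 h in control (-0.97, SE 0.16, limma adjusted p = 0.00246; lost only without number 30, where it was 0.140). Itga1, the collagen-binding integrin chain, was 0.57 higher at 24 h than at 2 h in control (SE 0.14, adjusted p = 0.0497; lost in 9 of 16 alternatives). Thbs1, a secreted matrix glycoprotein, was 0.84 higher at 6 h than at 2 h in control (SE 0.17, adjusted p = 0.0178; lost in 5 of 16). Among the 106 pathway genes measured these were the calls between control times. From 2 h to 6 h they were 0.943% of the 106, against 0.707% of all genes. From 2 h to 24 h they were 1.89% of the 106, 1 higher and 1 lower. Of all genes 0.627% were called lower there. That share is of 1 direction only, so it cannot be set against the 1.89%, which holds both directions. The biliary and progenitor marker Sox9 was lower in control at 24 h than at 2 h (-0.53, adjusted p = 0.0190; lost in 6 of 16).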
